A study of Mus musculus with 6 samples.

Results

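The route of glucose carbon through the mammary gland was followed in 40 genes. They encode 5 transporters of glucose and lactate, 14 enzymes of glycolysis, 2 lactate dehydrogenase subunits, 3 subunits of pyruvate dehydrogenase and 3 of its kinases. The rest encode 11 enzymes of the tricarboxylic acid (TCA) cycle and 2 enzymes of pyruvate entry and oxaloacetate exit. The 40 genes were taken by gene symbol from a list of pathway members that used no threshold on measured values. Earlier results of these data were known when that list was drawn up. All 40 were found among the 25160 features of the count table. They also passed the filter on low counts, which left 15925 features for testing. The samples were inguinal mammary glands, freed of lymph nodes, from wild-type female FVB/N mice fed an estrogen-free diet. In the metformin group (n = 3), mice received 200 mg/kg of the drug daily by injection into the abdomen for 10 weeks, starting at 8 weeks of age and ending at 18, and in the control group (n = 3) they received saline over the same weeks. Metformin is a diabetes drug, and the question asked of these libraries was how it alters gene expression in the mammary gland of mice without tumors. Each library came from an individual mouse.

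Glucose enters cells through facilitative carriers of the GLUT family (the Slc2a genes) or together with sodium (SGLT, the Slc5a genes), and glycolysis splits it into pyruvate. Pyruvate is then reduced to lactate, or enters mitochondria, where pyruvate dehydrogenase turns it into the acetyl-CoA that feeds the TCA cycle. The resting gland is largely a fat pad that holds a branched epithelium, and both compartments take up glucose, adipocytes under the control of insulin and secretory epithelium for the synthesis of milk lactose. Metformin is known to inhibit complex I of the mitochondrial respiratory chain, which accepts electrons from the NADH that the cycle produces.

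The libraries held 35375365 to 47370885 counts. Control 3 stood apart from the other controls: on the first principal component, which held 34.8% of the variance, it lay on the side of the metformin mice. Summed levels of 8 milk secretion markers, in CPM (counts scaled to library size, normalized by TMM), were 260, 329 and 829 in metformin mice 1 to 3, against 41423, 35678 and 616 in controls 1 to 3. Control 3 was thus within the range of the metformin mice, and of these markers Wap was at 0 in metformin 3 and in control 3, and Glycam1 was at 0 in control 3. In whole tissue, fewer cells of a type and less RNA per cell cannot be told apart.

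Of the 40 genes, 2 passed the thresholds of at least a 1.5-fold change at an unadjusted p under 0.01 in the edgeR quasi-likelihood test, and both, Slc5a1 and Aldoc, were lower in metformin mice. Over all features tested, 1.7% passed these thresholds, 1.28% in the lower direction. None of the 40 passed in the higher direction, against 0.421% of all features. After Benjamini-Hochberg adjustment over all features, no feature had an adjusted p under 0.05 in edgeR, and the adjusted p of the 40 genes lay between 0.541 and 0.981. At an unadjusted p under 0.05, edgeR called 1199 features (7.53%; 4.85% lower and 2.68% higher), and of the 40 genes the same 2, both lower. With DESeq2, 200 of 15911 features had an adjusted p under 0.05, and Slc5a1 (0.0291) and Aldoc (0.0262) were among them.

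Most of the route had slightly higher mean levels under metformin. The log2 fold change, metformin over control, was above 0 for 33 of the 40 genes and below 0 for 7, where 51.3% of all features were above 0 and 48.7% below. Its median over the 40 genes was 0.27 and its range -2.05 to 0.72, while the median over all features was 0.011. The sign of the median was not stable: it was -0.043 in limma-voom with sample quality weights, and -0.057 when metformin 2 was left out. By step, the median was 0.13 for transport, 0.26 for glycolysis, 0.33 for lactate dehydrogenase, 0.25 for pyruvate dehydrogenase, 0.24 for its kinases and 0.33 for the TCA cycle. The spread among mice of a group was larger than these differences for most genes. The log2 fold change exceeded the larger of the 2 within-group SDs (on the log2 scale) in 7 of the 40.

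**Figure D1:**
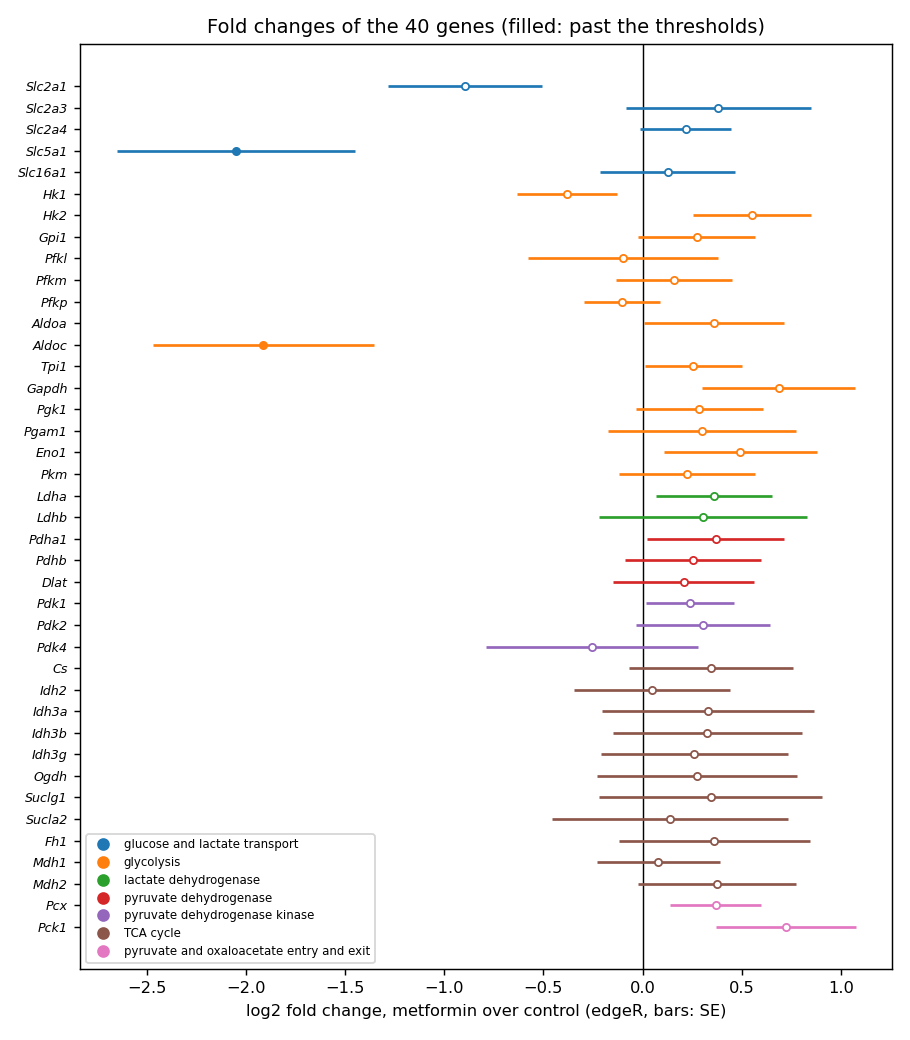
Fold changes of the 40 genes on the log2 scale, metformin over control, from edgeR; points are estimates, bars are standard errors and colors are steps of the route. Slc5a1 and Aldoc, the filled points, lie near -2, while the 11 TCA cycle genes lie between 0.048 and 0.37 with bars that cross 0, and were all below 0 when metformin 2 was left out.

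The upstream sequences of 2 genes are shown, because Slc5a1 had the lowest log2 fold change of the set and Pcx was the only gene whose groups did not overlap, and because their windows lie outside annotated exons. Both were taken from RefSeq (assembly GRCm38.p6) and end at the base before the annotated start. The Slc5a1 window is chr5:33103969-33104218 on the plus strand, and that of Pcx, for the first of its 2 starts, is chr19:4510222-4510471 on the plus strand. Capitals mark the E-box CACGTG, a palindrome bound by basic helix-loop-helix factors.
Slc5a1: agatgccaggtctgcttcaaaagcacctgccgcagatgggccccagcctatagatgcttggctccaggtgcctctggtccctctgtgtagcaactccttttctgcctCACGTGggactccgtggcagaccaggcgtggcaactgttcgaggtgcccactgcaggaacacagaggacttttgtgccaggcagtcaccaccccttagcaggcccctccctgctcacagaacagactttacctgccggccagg
Pcx: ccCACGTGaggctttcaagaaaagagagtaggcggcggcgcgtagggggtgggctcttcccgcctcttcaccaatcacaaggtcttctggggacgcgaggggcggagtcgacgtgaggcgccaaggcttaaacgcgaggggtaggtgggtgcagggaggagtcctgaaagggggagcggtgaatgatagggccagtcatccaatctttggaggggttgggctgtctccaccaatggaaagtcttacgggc

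The E-box begins 143 bases before the start of Slc5a1 and 248 bases before that of Pcx. Windows of 250 bases were found for 37 of the 40 genes (56 windows, since some genes have several starts), and not for Slc2a3, Slc2a4 and Idh3a. CACGTG was present in 7 of the 37 (18.9%), namely Slc5a1, Slc16a1, Pfkm, Ldha, Pdk2, Ogdh and Pcx, and in 6.86% of the 27025 genes with a window. The 40 genes had more windows per gene than the whole table, which held 32851. Counted per window, CACGTG was in 9 of 56 (16.1%) and in 6.02% of all windows. Searched on both strands in the same way, the STAT motif TTCNNNGAA was in 2 of the 37 (Pfkm and Aldoc) and in 8.13% of all genes. The nuclear receptor half-site AAGGTCA was in 1 of the 37 (Eno1) and in 4.70% of all genes, and the cAMP response element TGACGTCA was in 3 (Ldha, Ogdh and Mdh2) and in 1.77% of all genes. These matches are descriptions of the letters in the windows and no more.

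At the first step, glucose uptake, the sodium-coupled carrier and GLUT1 had lower means under metformin and GLUT4 did not. Slc5a1, which encodes SGLT1 and lies at chr5:33104219-33162870 (GRCm38), had 3.09, 2.65 and 3.75 CPM in metformin mice 1 to 3, against 13.2, 22.6 and 3.45 CPM in controls 1 to 3. Controls 1 and 2 were above all metformin mice, and control 3 lay among them. In edgeR this gave a log2 fold change of -2.05 (SE 0.60, edgeR unadjusted p = 0.0097, adjusted p = 0.541). Slc2a1, which encodes the widely expressed GLUT1, had 21.6, 17.0 and 30.7 CPM in metformin mice, against 48.8, 59.2 and 20.8 CPM in controls. Again controls 1 and 2 were the highest of the 6 mice and control 3 lay inside the metformin range. Its log2 fold change of -0.90 (SE 0.39) did not pass the thresholds (edgeR unadjusted p = 0.0518). Without control 3 it was -1.22 with an unadjusted p of 0.00267 in edgeR, past the thresholds, while its adjusted p was 0.134. In that fit 4.06% of all features passed, against 1.7% with all mice. With control 3 kept and any 1 other mouse left out, Slc2a1 did not pass. Its log2 fold change was then -1.15 to -0.59 (edgeR unadjusted p from 0.0380 to 0.189), and the value nearest 0 came without control 2.

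Slc2a4, the insulin-responsive GLUT4 of fat and muscle, had 514, 608 and 523 CPM in metformin mice, against 585, 445 and 384 CPM in controls. The groups overlapped through control 1, and the log2 fold change was 0.22 (SE 0.23, edgeR unadjusted p = 0.373). Slc2a3, the high-affinity carrier GLUT3, was between 7.51 and 20.3 CPM in metformin mice and between 5.42 and 16.4 CPM in controls. Slc16a1, the lactate carrier MCT1, was between 115 and 189 CPM in metformin mice and between 85.6 and 195 CPM in controls. Neither of these passed the test.

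Levels of different genes were compared only per length, in the deposited FPKM. On that scale GLUT4 was by far the most abundant of the 3 GLUT genes: Slc2a4 was at 158 to 206 FPKM over the 6 mice, Slc2a1 at 4.29 to 17.6 FPKM and Slc2a3 at 1.18 to 4.79 FPKM. The Slc2a4 range did not meet the others, while those of Slc2a1 and Slc2a3 met. The share of Slc2a1 in the summed FPKM of the 3 genes was 3.05%, 2.09% and 4.24% in metformin mice, against 5.99%, 9.18% and 3.88% in controls. Control 3 was below metformin 3, and the difference of the means was -3.22 percentage points (exact two-sided permutation test, p = 0.2). With 3 mice against 3 this test cannot give a p below 0.1. After adjustment over the 8 isozyme shares that were compared, no exact p was below 0.4.

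Glycolysis held 1 gene that passed the thresholds, the aldolase C gene Aldoc, and 13 that did not. Aldoc, a minor aldolase best known from brain, lies at chr11:78322968-78327781 (GRCm38). It had 21.2, 20.5 and 23.4 CPM in metformin mice, against 77.2, 145 and 23.1 CPM in controls. The 3 metformin mice lay within a narrow band, controls 1 and 2 stood far above it and control 3 fell inside it. Its log2 fold change was -1.91 (SE 0.56, edgeR unadjusted p = 0.00971, adjusted p = 0.541). Aldoc made up only a small part of the aldolase transcripts. Its share in the summed FPKM of Aldoa and Aldoc was 0.311%, 0.159% and 0.241% in metformin mice, against 0.803%, 1.98% and 0.391% in controls. In FPKM the groups did not overlap, as in 11.3% of all features (7.11% with metformin lower). The exact permutation test of the share gave p = 0.1, the smallest it can give.

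The calls of Slc5a1 and Aldoc depended on which mice were included and on the scale of the values. With all 6 mice, neither gene passed in limma on the log2(FPKM + pseudocount) scale, where the unadjusted p lay between 0.0207 and 0.0484 over 3 settings. Without control 3 the log2 fold changes were -2.50 for Slc5a1 and -2.35 for Aldoc, with edgeR adjusted p of 0.0310 and 0.0266. In that fit 96 features had an edgeR adjusted p under 0.05, against 0 with all mice. The thresholds were passed by 4.06% of all features, against 1.7% with all mice. When any 1 of the other 5 mice was left out, neither gene passed: the log2 fold change stayed between -2.19 and -1.39 for Slc5a1 and between -1.97 and -1.21 for Aldoc, and the unadjusted edgeR p lay between 0.0212 and 0.0401 for Slc5a1 and between 0.0188 and 0.0345 for Aldoc. The values nearest to -1 came from leaving out control 2 in both genes. The milk secretion markers given above, 6 of 6 tested with log2 fold changes below 0, moved with these genes over the mice. Summed CPM of 10 mammary epithelial markers were 995, 644 and 788 in metformin mice and 898, 1688 and 959 in controls, and 8 of the 10 had log2 fold changes below 0. Their part in the results for Slc5a1, Aldoc and Slc2a1 was not tested.

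**Figure D2:**
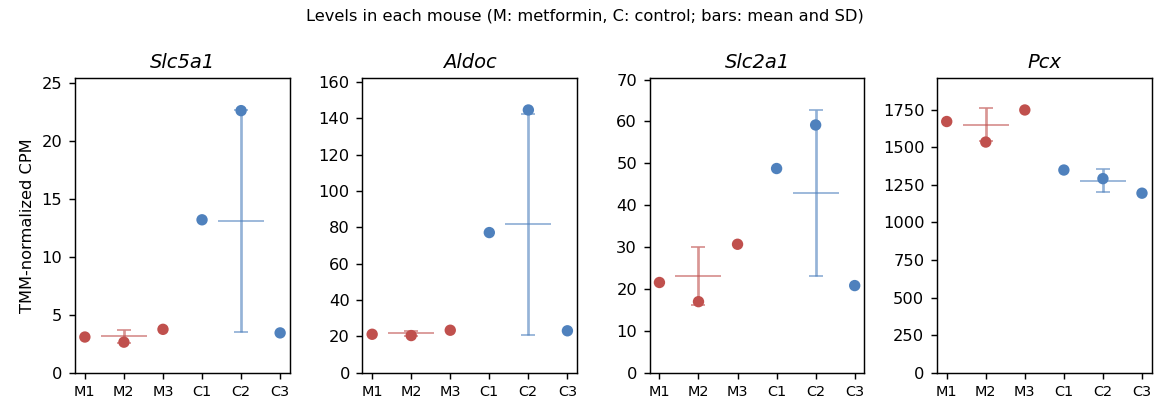
CPM in each mouse for Slc5a1, Aldoc, Slc2a1 and Pcx, with metformin mice (M) left of controls (C); points are mice, and horizontal marks with bars are means and SDs (n = 3 each). In the first 3 genes controls 1 and 2 are the highest points and control 3 lies at the level of the metformin mice, while in Pcx all metformin mice, at 1535 to 1748 CPM, are above all controls.

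The pattern of controls 1 and 2 as the highest pair was found in 4 of the 40 genes (10%), and in 9.21% of all features tested. The fourth gene was Hk1, the widespread hexokinase that traps glucose in the cell as its phosphate, at 43.1 to 72.5 CPM in metformin mice and 59.5 to 93.6 CPM in controls. Hk2, the insulin-regulated hexokinase of muscle and fat, had 363, 490 and 276 CPM in metformin mice, against 300, 178 and 293 CPM in controls. Metformin 1 and 2 were above all controls, whereas metformin 3 was below controls 1 and 3. For Hk2 the log2 fold change was 0.55 (SE 0.30, edgeR unadjusted p = 0.101). The share of Hk2 in the summed FPKM of both hexokinases was 86.8%, 83.9% and 76.1% in metformin mice, against 73.3%, 59.4% and 79.3% in controls (exact two-sided permutation test, p = 0.2).

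None of the enzymes of the next steps passed the test. Gpi1, the isomerase that makes fructose 6-phosphate, had a log2 fold change of 0.27, and the phosphofructokinase subunits, which catalyze the committed step, had -0.099 (Pfkl, the liver type), 0.16 (Pfkm, the muscle type) and -0.10 (Pfkp, the platelet type). The sign for Pfkl was the opposite without control 1 and that for Pfkm in limma-voom with sample quality weights. In FPKM, Pfkm held 63.0%, 63.4% and 66.9% of the 3 subunits in metformin mice, against 49.6%, 62.3% and 74.6% in controls. The metformin mice were close to each other and lay inside the much wider control range (exact two-sided permutation test, p = 0.7). Aldoa, the main aldolase and the most abundant of the 40 genes at 2316 to 3983 FPKM, had a log2 fold change of 0.36. The symbol Aldoa was carried by 2 features, and all its values are those of the feature with the higher mean count. Tpi1, which interconverts the triose phosphates, had a log2 fold change of 0.26.

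Gapdh, which oxidizes glyceraldehyde 3-phosphate, had 163, 86.3 and 57.2 CPM in metformin mice, against 58.4, 83.5 and 48.5 CPM in controls. Metformin 1 was far above the other 5 mice, and metformin 3 was below controls 1 and 2. For Gapdh the log2 fold change was 0.69 (SE 0.39, edgeR unadjusted p = 0.116), and without metformin 1 it was 0.14. The values are uncertain, because 26 annotated genes, 24 of them pseudogenes, are near-identical to Gapdh in sequence, and how reads shared among copies were counted is not given in the sources used here. Gapdh was at 36.2 to 116 FPKM, below Pgk1, the enzyme that follows it, at 162 to 283 FPKM. Pgk1 itself has 3 near-identical pseudogenes, and Gpi1, Pgam1, Pkm, Ldhb and Pdhb have 1 each, so the same uncertainty applies to them.

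In the lower part of glycolysis all log2 fold changes were above 0, namely 0.29 for Pgk1, which yields the first ATP, 0.30 for the mutase gene Pgam1, 0.49 for the enolase gene Eno1 and 0.23 for Pkm. Those of Pgam1 and Pkm were below 0 in limma-voom with sample quality weights. None passed the test. Eno1 shares 99.5% of its aligned sequence with Eno1b, which held 34.2% of the counts of both, so its level is uncertain. Pkm, the pyruvate kinase gene, had 974, 1694 and 1329 CPM in metformin mice, against 1606, 972 and 840 CPM in controls. Metformin 2 was highest and control 1 second, and the log2 fold change of 0.23 (SE 0.34, edgeR unadjusted p = 0.531) was below the spread in both groups.

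At the branch to lactate, Ldha, the subunit that favors lactate formation, had 1710, 2435 and 1821 CPM in metformin mice, against 1909, 1513 and 1222 CPM in controls. Metformin 2 was again highest and control 1 second, and the other metformin mice were above the other controls. The log2 fold change was 0.36 (SE 0.29, edgeR unadjusted p = 0.252). Ldhb, the subunit typical of heart, was at 187 to 656 CPM in metformin mice and 199 to 499 CPM in controls. In FPKM its share of both subunits was 11.9%, 25.4% and 16.9% in metformin mice, against 24.4%, 14.1% and 18.6% in controls, and the groups overlapped (exact two-sided permutation test, p = 0.8).

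**Figure D3:**
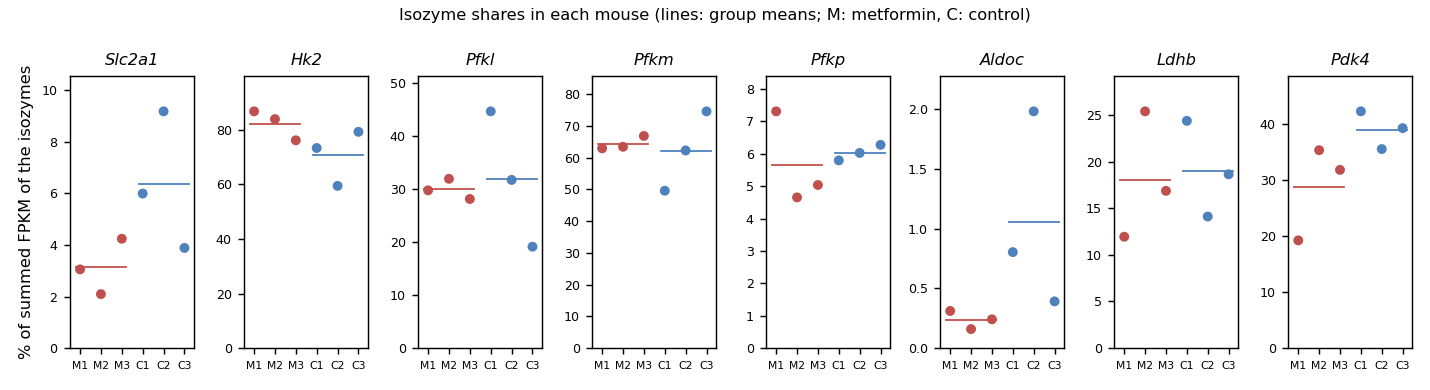
Share of each named isozyme in the summed FPKM of its step, in percent, for each mouse, with metformin mice (M) left of controls (C) and lines at the group means. The Aldoc share is 0.159% to 0.311% in metformin mice and 0.391% to 1.98% in controls, the Pdk4 groups come within a fraction of a percentage point of each other, and the others overlap.

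At the entry to mitochondria, the pyruvate dehydrogenase genes had nearly the same pattern as Ldha. Pdha1, the catalytic subunit on which the kinases act, had 1195, 1610 and 1215 CPM in metformin mice, against 1494, 645 and 975 CPM in controls. Metformin 2 and control 1 were the 2 highest mice, and the other metformin mice were above the other controls. For Pdha1 the log2 fold change was 0.37 (SE 0.35, edgeR unadjusted p = 0.320). It was 0.25 for Pdhb, the partner subunit, and 0.21 for Dlat, the acetyl-transferring core. Neither passed the test, and that of Dlat was -0.066 in limma-voom with sample quality weights.

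The kinases switch the complex off by phosphorylation. Pdk4, the form known to be induced by fasting, had 91.9, 413 and 236 CPM in metformin mice, against 446, 201 and 237 CPM in controls. Metformin 1 was the lowest of the 6 mice and control 1 the highest, and the log2 fold change was -0.26 (SE 0.53, edgeR unadjusted p = 0.645). Pdk1 and Pdk2 had log2 fold changes of 0.24 and 0.30. The share of Pdk4 in the summed FPKM of the 3 kinases was 19.3%, 35.4% and 31.9% in metformin mice, against 42.3%, 35.6% and 39.3% in controls. The groups did not overlap, though metformin 2 and control 2 nearly met. The difference of means was -10.2 percentage points, and the exact two-sided permutation test gave the smallest p it can, 0.1, with an adjusted p of 0.4.

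The TCA cycle varied together over the mice, and more within each group than between them. Cs, citrate synthase, which joins acetyl-CoA to oxaloacetate, had 732, 1792 and 1131 CPM in metformin mice, against 1390, 663 and 822 CPM in controls. Metformin 2 was highest and control 1 second, and metformin 1 was below control 3. For Cs the log2 fold change was 0.35 (SE 0.41, edgeR unadjusted p = 0.429). Idh3a, the catalytic subunit of the NAD-dependent isocitrate dehydrogenase, named here after its values were seen, had 352, 1175 and 487 CPM in metformin mice, against 867, 324 and 410 CPM in controls. It had the same order at the top, and a log2 fold change of 0.33 (SE 0.53).

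In all 11 cycle genes metformin 2 was the highest mouse and control 1 the second. That order was also found in all 3 pyruvate dehydrogenase genes and in both lactate dehydrogenase genes. It held for 23 of the 40 genes (57.5%), and for 9.65% of all features tested. Metformin 2 exceeded metformin 1 by 1.77-fold (Mdh1) to 3.66-fold (Sucla2), and control 1 exceeded control 2 by 1.60-fold (Mdh1) to 3.41-fold (Sucla2). The fold changes between the groups were much smaller, at 1.03 (Idh2) to 1.30 (Mdh2). Sucla2 encodes a subunit of succinyl-CoA synthetase, Idh2 the NADP-dependent mitochondrial isocitrate dehydrogenase, and Mdh1 and Mdh2 the cytosolic and mitochondrial malate dehydrogenases.

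The log2 fold changes of the 11 genes were all above 0, at 0.048 to 0.37, with a median of 0.33 and unadjusted edgeR p from 0.378 upward. In none did the log2 fold change exceed both within-group SDs. The direction depended on which mice were included. Without metformin 2, all 11 log2 fold changes were below 0, with a median of -0.14. Without control 1, all 11 were above 0 with a median of 0.83, and Fh1, the fumarase gene, had a value of 0.98. Fh1 was the only cycle gene with an unadjusted edgeR p under 0.05 in that fit, as 7.2% of all features had. Without control 2 or without control 3, 8 were above 0 and 3 below, with medians of 0.067 and 0.13. Without both metformin 2 and control 1, an alternative chosen after the data were seen, 10 of the 11 were above 0 with a median of 0.34. In limma-voom with sample quality weights 2 were above 0 and 9 below, with a median of -0.15. Apart from those named, the cycle genes were Idh3b and Idh3g, regulatory subunits of isocitrate dehydrogenase, Ogdh, the first subunit of the 2-oxoglutarate dehydrogenase complex, and Suclg1, the other succinyl-CoA synthetase subunit.

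**Figure D4:**
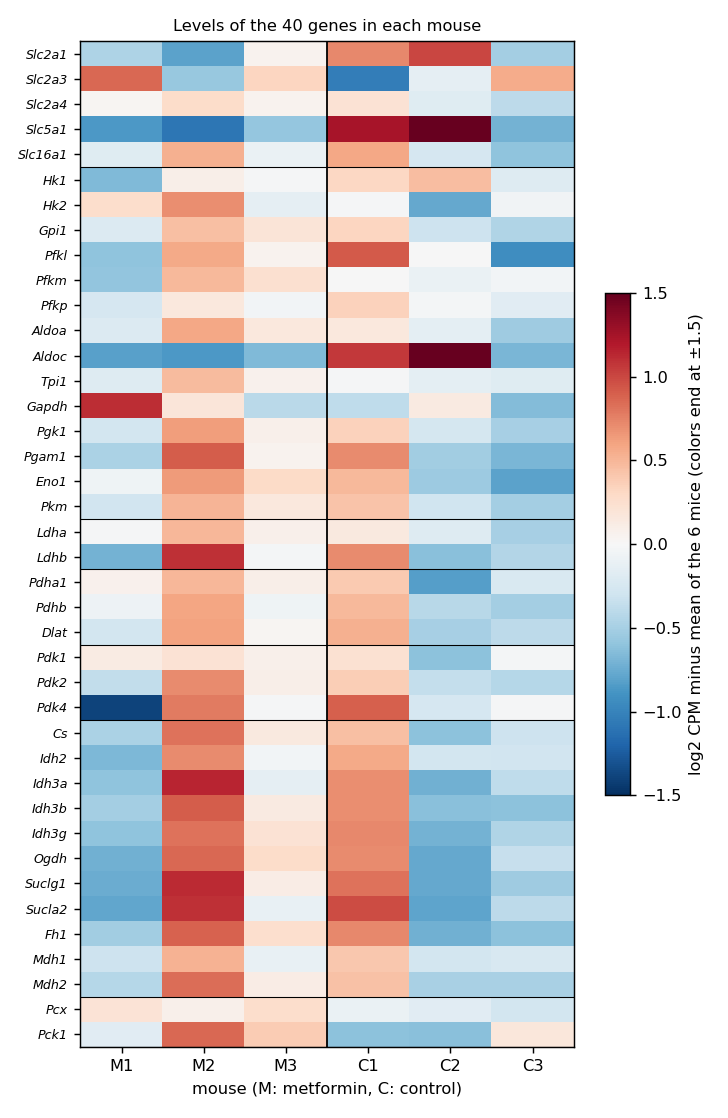
Levels of the 40 genes in each mouse as log2 CPM minus the mean of the 6 mice, with metformin mice (M) left of controls (C) and lines between the steps of the route. Metformin 2 and control 1 are the high columns in the pyruvate dehydrogenase and TCA cycle blocks, and controls 1 and 2 are high in Slc5a1 and Aldoc.

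Markers of brown adipocytes, fat cells rich in mitochondria, were also highest in sum in metformin 2 and control 1. The summed CPM of 8 such markers were 306, 4937 and 1270 in metformin mice, against 2866, 508 and 532 in controls. Metformin 2 was highest and control 1 second in 4 of the 8 (Ucp1, Cidea, Cox8b and Cox7a1), and the sum was dominated by Ucp1 and Cidea. Ucp1, the uncoupling protein that defines these cells, had 55.7, 3414 and 630 CPM in metformin mice, against 1544, 188 and 244 CPM in controls, and none of the 8 markers was at 0 in any mouse. The log2 fold changes of 6 of the 8 were above 0 and none passed the test. Summed CPM of the 11 cycle genes were 3830, 10322 and 6020 in metformin mice, against 8686, 3686 and 4286 in controls. Summed CPM of 10 skeletal muscle markers were 15305, 30784 and 22360 in metformin mice, against 19571, 17835 and 18728 in controls, so that metformin 2 was highest there as well. The part of either marker list in the levels of the mitochondrial genes was not tested.

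**Figure D5:**
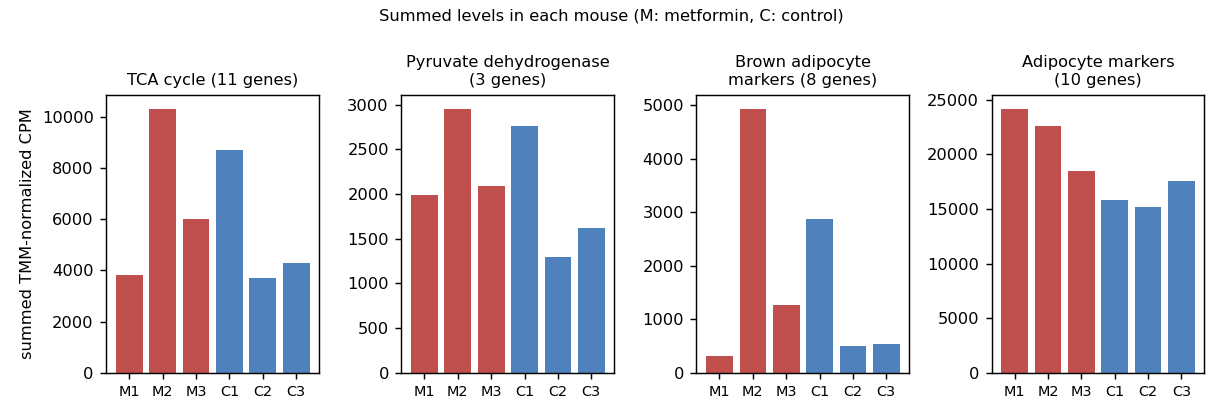
Summed CPM in each mouse for the TCA cycle genes, the pyruvate dehydrogenase genes, 8 brown adipocyte markers and 10 adipocyte markers, with metformin mice (M) left of controls (C). Metformin 2 and control 1 have the highest bars in the first 3 panels. In the fourth, all metformin mice, at 18526 to 24199 CPM, are above all controls, at 15156 to 17604 CPM. That sum was dominated by Fabp4 and Cfd, and only Plin1 and Cidec of its markers had groups that did not overlap.

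The genes of pyruvate entry and oxaloacetate exit, Pcx and Pck1, had the highest step median, 0.55 on the log2 scale. Pcx, pyruvate carboxylase, which refills the cycle with oxaloacetate and supports fat synthesis in adipocytes, is given here after its values were seen. It had 1672, 1535 and 1748 CPM in metformin mice, against 1349, 1292 and 1195 CPM in controls. Every metformin mouse was above every control, and Pcx was the only one of the 40 genes whose groups did not overlap, where 13.2% of all features did not overlap (6.24% with metformin higher and 7.01% with it lower). Its log2 fold change was 0.37 (SE 0.23) and did not pass the test (edgeR unadjusted p = 0.148, DESeq2 unadjusted p = 0.0152). Leaving out each mouse gave log2 fold changes between 0.33 and 0.42, with unadjusted edgeR p from 0.160 to 0.282. When control 1 was left out, 15 of the 40 genes had groups that did not overlap, all higher in metformin mice, and 25.1% of all features did not overlap.

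Pck1, the cytosolic phosphoenolpyruvate carboxykinase, which in fat tissue serves glyceroneogenesis, had 619, 1265 and 907 CPM in metformin mice, against 456, 450 and 786 CPM in controls. Metformin 2 and 3 were above all controls, and metformin 1 was below control 3. Its log2 fold change was 0.72 (SE 0.35, edgeR unadjusted p = 0.0762), the highest among the 40 genes. Leaving out each mouse gave values between 0.44, without metformin 2 (edgeR unadjusted p = 0.256), and 1.04, without control 3 (edgeR unadjusted p = 0.02). Summed CPM of 10 adipocyte markers were 24199, 22586 and 18526 in metformin mice, against 15813, 15156 and 17604 in controls, with log2 fold changes above 0 for all 10 and a median of 0.42. The sum was dominated by Fabp4 and Cfd. Of the 10 markers, only Plin1 and Cidec, proteins of the lipid droplet, had groups that did not overlap, both with metformin higher. Of all features, 6.24% did so in that direction. Adipoq, Lep and Pparg were highest in control 3. None of the 10 passed the thresholds, and their part in the levels of Pcx and Pck1 was not tested.

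Other genes of the same metabolism, listed by pathway, numbered 87, of which 77 passed the filter on low counts. Their log2 fold changes were above 0 for 55 and below 0 for 22, with a median of 0.19. Of all features, 51.3% were above 0 and 48.7% below. Of the 77 genes, 2 passed the thresholds in the lower direction, as did 1.28% of all features. None passed in the higher direction, against 0.421% of all features. Slc2a9, a carrier known mainly for urate, had 2.78, 2.60 and 3.23 CPM in metformin mice, against 22.3, 23.0 and 2.81 CPM in controls. In edgeR the log2 fold change was -2.48 (SE 0.68, edgeR unadjusted p = 0.00731, adjusted p = 0.539). Lalba, α-lactalbumin, which directs galactosyltransferase to make lactose and was also on the milk secretion list, had 13.8, 6.95 and 20.3 CPM in metformin mice, against 542, 697 and 19.5 CPM in controls. Its log2 fold change was -4.94 (SE 1.16, edgeR unadjusted p = 0.00311, adjusted p = 0.539). In both genes control 3 lay inside the metformin range, as it did in Slc5a1 and Aldoc.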

How the data were processed

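Poly(A) RNA of 6 mammary glands was sequenced in paired-end mode by a service provider, and the processing notes name HISAT2, StringTie and the mouse build mm10. Their versions, the rule for counting and the use of strand were not stated in the labels or the methods. The authors deposited raw read counts per gene and, in a second table, FPKM values (fragments scaled to gene length and library size) for the same genes. No column was left unused. Counts were normalized by TMM, filtered with filterByExpr and tested with the quasi-likelihood test of edgeR 4.0.16 (R 4.3.3), metformin over control, with adjustment over 15925 features. Thresholds were those of the study, a fold change of 1.5 and p under 0.01. Reported CPM are TMM-normalized.

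Isozyme shares were formed from the deposited FPKM and compared by exact two-sided permutation tests (scipy 1.17.1). Alternatives were DESeq2 1.42.0, limma-voom (limma 3.58.1) weighted by sample quality, 2 other normalizations (upper quartile and RLE), no filter or at least 10 counts in every mouse, removal of unnamed new genes, limma on log2(FPKM + 1) or log2(FPKM + 0.1) with a mean FPKM of at least 1 or no filter, a replicate block and the removal of each mouse. Near-identical copies were transcripts aligned by minimap2 2.31-r1302 at 95% identity over 50% of the length. Scripts were tested on simulated data.

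The 40 genes and all lists were chosen with earlier results of these data known. Values per mouse are given for genes past the thresholds, at p under 0.05 or with separate groups and a log2 fold change of at least 0.5 in size, and for Slc2a1, Slc2a4, Hk2, Gapdh, Pkm, Ldha, Pdha1, Pdk4, Cs and Pck1. Markers of fibroblasts, endothelium, leukocytes, red blood cells and Schwann cells had median log2 fold changes of 0.20, 0.025, -0.0037, 0.91 and -0.20.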

Additional observations from a re-analysis of the deposited data

How the results depend on the processing

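With DESeq2, 519 features (3.26%) passed the thresholds, against 271 (1.70%) in edgeR. In DESeq2, 5 of the 40 genes had an unadjusted p under 0.05 (Slc2a1, Slc5a1, Aldoc, Pcx and Pck1), as had 8.84% of all features. In limma-voom 5 did so (Slc2a1, Slc5a1, Hk1, Aldoc and Pck1), and 9.92% of all features. On log2(FPKM + 1), log2(FPKM + 0.1) and log2(FPKM + 1) with no filter, 155, 174 and 98 features (1.25%, 1.41% and 0.477%) passed and 0 of the 40 genes. The limma unadjusted p of Slc5a1 and Aldoc then lay between 0.0207 and 0.0484. In FPKM, 2 of the 40 genes (Aldoc lower, Pcx higher) had groups that did not overlap, as did 11.3% of all features. Without both metformin 2 and control 1, chosen after seeing the data, 109 features (0.678%) and 0 of the 40 genes passed.

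Leaving out each mouse gave 107 to 666 features past the thresholds, 0 to 3 of the 40 genes lower and 0 higher, 2 to 4 at an unadjusted p under 0.05, and 1 to 15 with groups that did not overlap. Over all features, 0.664% to 4.06% passed, 4.82% to 10.5% had an edgeR unadjusted p under 0.05, and 21.0% to 26.3% did not overlap. The median log2 fold change of the 40 genes was -0.057 to 0.57, and in limma-voom with all mice -0.043. The count of 666 and the count of 3 came without control 3. The sign of the log2 fold change was the opposite in at least 1 of these fits for 22 genes, whose ranges were Slc2a3 -0.023 to 0.84, Slc16a1 -0.13 to 0.54, Pfkl -0.44 to 0.48, Pfkm -0.074 to 0.38, Pfkp -0.21 to 0.061, Pgam1 -0.17 to 0.88, Ldhb -0.34 to 0.84, Pdhb -0.00044 to 0.65, Dlat -0.074 to 0.61, Pdk2 -0.029 to 0.61, Pdk4 -0.85 to 0.17, Cs -0.041 to 0.72, Idh2 -0.38 to 0.40, Idh3a -0.35 to 0.87, Idh3b -0.11 to 0.91, Idh3g -0.13 to 0.83, Ogdh -0.14 to 0.82, Suclg1 -0.27 to 1.01, Sucla2 -0.55 to 0.86, Fh1 -0.037 to 0.98, Mdh1 -0.20 to 0.33, Mdh2 -0.024 to 0.76.

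Deviations of same-numbered mice from their group means were not positively correlated over the features (-0.35, -0.14 and -0.013). Differently numbered mice were not compared in this way, so these values cannot exclude a pairing by replicate number. With the replicate number as a block, 118 features (0.741%) and 0 of the 40 genes passed, and the log2 fold change of Pfkl was 0.046. In that fit Slc5a1 had an edgeR unadjusted p of 0.0437 and Aldoc of 0.0335.

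In limma-voom 16 log2 fold changes were below 0 that were above it in edgeR: Slc16a1 -0.15, Pfkm -0.034, Pgam1 -0.13, Pkm -0.040, Ldhb -0.22, Dlat -0.066, Pdk2 -0.0079, Idh2 -0.34, Idh3a -0.17, Idh3b -0.089, Idh3g -0.13, Ogdh -0.15, Suclg1 -0.18, Sucla2 -0.38, Fh1 -0.046, Mdh1 -0.16. On log2(FPKM + 1), with the filter or without, Idh2 was at -0.078 and Mdh1 at -0.0063, and on log2(FPKM + 0.1) they were at -0.079 and -0.0064. Without both metformin 2 and control 1 the opposite signs were Pfkl 0.15, Pfkm -0.063, Idh2 -0.048. The cause of these changes was not tested. Slc5a1, the least abundant of the 40 genes in FPKM, had 2102 counts over the 6 mice.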

Other observations

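Over the other pathway genes, Tkt, the transketolase of the pentose phosphate pathway, had 3096, 2929 and 2807 CPM in metformin mice, against 2774, 1806 and 1358 CPM in controls, so that all metformin mice were above all controls; its log2 fold change was 0.57 (SE 0.33, edgeR unadjusted p = 0.124). The groups of Slc2a8, an intracellular glucose carrier, were also apart, at 29.4 to 31.1 CPM in metformin mice and 14.3 to 27.2 CPM in controls. Those of Pgm2, a phosphopentomutase, were apart in the other direction, at 9.72 to 10.5 CPM in metformin mice and 11.7 to 13.6 CPM in controls. Among the 77 tested pathway genes these were the only ones with groups apart, 2 higher and 1 lower. Of all features, 13.2% had groups that did not overlap. These genes were named after their values were seen. Pfkfb3, which makes the activator of phosphofructokinase, had 464, 310 and 281 CPM in metformin mice, against 133, 133 and 467 CPM in controls, so that control 3 was the highest of the 6 mice. Its log2 fold change was 0.53 with all mice (edgeR unadjusted p = 0.337) and 1.41 without control 3 (edgeR unadjusted p = 0.00157, adjusted p = 0.112). B4galt1, the galactosyltransferase partner of α-lactalbumin, had a log2 fold change of -0.58 with all mice (edgeR unadjusted p = 0.0709) and -0.84 without control 3 (edgeR unadjusted p = 0.00233, adjusted p = 0.130). Of all features, 4.06% passed the thresholds in the fit without control 3, against 1.7% with all mice. Pfkfb3 and B4galt1 were also named after their values were seen.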
